A study of Homo sapiens with 6 samples.

Results

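The protocadherin genes were the 58 protein-coding genes of the count table whose symbol begins with PCDH, out of 30230 genes in the table, 17075 of them protein-coding. They comprised 50 clustered genes, of which 15 belonged to the alpha, 15 to the beta and 20 to the gamma group, and 8 genes that lie elsewhere in the genome, here called the other protocadherins. The members were chosen by symbol and gene type. That rule uses no measured value, but it was set with earlier results of these data known. The annotation GENCODE v44 lists 66 protein-coding genes with such a symbol, and the remaining 8, among them PCDHB1, PCDHGA12 and PCDHGC5, had no row in the count table.

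The values came from bulk RNA sequencing of polyadenylated RNA of A549, an epithelial cell line grown from a human lung adenocarcinoma. There were 3 negative control libraries (NC) and 3 libraries of cells with FSCN1 silenced (siFSCN1). FSCN1 encodes fascin, a protein that bundles actin filaments. According to the study's methods the NC cells received a scrambled siRNA, while their treatment label names a control plasmid. The siFSCN1 cells received a single siRNA, and no rescue and no library of another siRNA was analysed here, so silencing of FSCN1 and any other effect of that siRNA cannot be told apart. The study calls the libraries biological replicates, and no passage number was given in the sources used here. In bulk RNA, fewer cells that use a gene and less RNA of it per cell cannot be told apart.

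The libraries held between 27967301 and 36560919 counts. FSCN1 was at 211, 220 and 212 CPM in the NC libraries and at 18.3, 11.8 and 13.2 CPM in the siFSCN1 libraries, where CPM is counts scaled to library size after TMM, edgeR's correction for RNA composition. Its log2 fold change was -3.89 (SE 0.094, edgeR adjusted p = 8.1e-16). No pair of libraries agreed within sampling noise, and no library stood apart from its group. Of the 6 epithelial markers listed for the check of A549, all 6 passed the filter on low counts. At an edgeR adjusted p under 0.05, EPCAM and CDH1 were higher in siFSCN1 (log2 fold changes 0.29 and 1.35). KRT7 (-1.19), KRT8 (-0.88), KRT18 (-0.99) and KRT19 (-1.10) were lower. Of all tested genes 35.1% were higher and 33.2% lower. The 3 endothelial markers and the 4 immune markers gave no gene that passed the filter.

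Protocadherins are the largest group of the cadherin superfamily, membrane proteins whose extracellular repeats bind the same protein on a neighbouring cell in the presence of calcium. In the alpha and gamma clusters each gene has its own large first exon, with its own promoter, that encodes the whole extracellular part and is spliced to exons shared by the entire cluster, whereas beta genes consist of essentially a large exon of their own. Neurons choose a few of these promoters at random in each cell, with CTCF and cohesin at the promoter and its distant enhancer, and the resulting set of proteins lets a neuron recognise its own branches. In epithelial tumours, clustered protocadherin promoters are known as a stretch of chromosome 5 that is often methylated as a block.

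The letters in front of the start sites were compared next. RefSeq promoter windows of GRCh38.p14, each of 300 bases that lie mostly upstream of the annotated start, were matched to 52 of the 58 members. CGCT, the core of the conserved element upstream of most clustered protocadherin exons, was found on either strand in 45 of 46 windows of clustered genes (97.8%) and in 6 of 6 windows of other protocadherins, against 70% of all 35116 windows, so it was not particular to the clusters. A loose form of the CTCF motif, which asks only for its CC, AG and GGC at their usual spacing, was found in 1 of these 46 windows (2.17%) against 10.6% of all windows. The longer GGCGCT, which contains CGCT, was added after the windows had been looked at and was found in 13 of 13 beta windows, 8 of 20 gamma windows (40%), 1 of 13 alpha windows (7.69%), 1 of 6 windows of other protocadherins (16.7%) and 21.7% of all windows. Extended to GGTGGCGCT, also chosen after looking, it was found in 13 of 13 beta windows, in no alpha, gamma or other protocadherin window, and in 0.501% of all windows (176). The clustered windows held few G and C bases, with a median of 37.3% in alpha, 39.7% in beta and 42% in gamma, against 59.2% in the other protocadherins and 58.7% over all windows. A match is a description of the letters and not a bound site.

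The beta stretches below are shown because they carry this shared element in front of genes that rose in siFSCN1 (PCDHB2, PCDHB5 and PCDHB14) and of a gene with too few counts for the filter (PCDHB7). Capitals mark GGCGCT, and all are read on the plus strand of GRCh38.p14, at chr5:141094546-141094575, chr5:141135181-141135210, chr5:141223265-141223294 and chr5:141172568-141172597 in this order.
PCDHB2: gagacgcggggtGGCGCTgcagccttagaa
PCDHB5: aggacgcctggtGGCGCTgcaggctaagag
PCDHB14: gagacacatggtGGCGCTacaggataagac
PCDHB7: aaaacgcaaggtGGCGCTgctggctaaaaa
Over the 13 beta genes with a window, 14 of the 30 positions of this stretch held the same base in all 13. The capitals began between -81 and 2 relative to the start, and before the start in 12 of 13.

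The gamma stretches below belong to 3 genes that rose (PCDHGA2, PCDHGA7 and PCDHGB4), 1 whose difference did not pass the test (PCDHGB5) and 1 that fell (PCDHGC3). Capitals mark GGCGCT or, on the opposite strand, AGCGCC. For each gene 1 match is shown, although PCDHGB4, PCDHGB5 and PCDHGC3 held further ones. The windows also held CGCT elsewhere, as at -46 and -41 in PCDHGA2, whose match shown here lies at -130. The gamma stretches are thus matches of letters and were not shown to be the conserved element. They lie at chr5:141338618-141338647, chr5:141382648-141382677, chr5:141387646-141387675, chr5:141397892-141397921 and chr5:141475837-141475866, all on the plus strand.
PCDHGA2: aagattctttaaAGCGCCttgaaagtcaac
PCDHGA7: gtaaggactcacAGCGCCgctgttcaccaa
PCDHGB4: agtggagagcttGGCGCTccagatctcctc
PCDHGB5: agtgcagagcttGGCGCTccagatctcctc
PCDHGC3: ctcagagagcccGGCGCTagctcattcttc
PCDHGB4 and PCDHGB5 shared 29 of 30 bases. The window of PCDHGC3 held GGCGCT 3 times and had 59% G and C bases, above the gamma median.

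The protocadherins differed between NC and siFSCN1 in both directions, and most of those tested did not pass. Genes were tested across the whole table with edgeR's quasi-likelihood test on the counts, and "passed" means an adjusted p under 0.05 over the 17076 genes tested. The filter on low counts left 26 of the 58 members, 11 alpha, 4 beta, 8 gamma and 3 other. Some low members, among them PCDHB14, PCDHGA2, PCDHGA6 and PCDHGA7, passed it only with counts of siFSCN1 libraries, where they were higher. Their place among the tested genes thus leans towards rises. Of the 23 clustered genes tested, 7 rose (30.4%), 2 fell and 14 did not pass, while 35.1% of all tested genes rose and 33.2% fell (68.3% in either direction). Of the 3 other protocadherins tested, 1 rose, 1 fell and 1 did not pass. A change of at least 2-fold was called for 5 clustered genes, 4 higher (PCDHB14, PCDHGA2, PCDHGA7 and PCDHGB4) and 1 lower (PCDHGC3), against 11.7% of all tested genes called higher and 4.85% called lower. No other protocadherin was called, although PCDH9 rose and PCDH7 fell below that fold. The share of clustered genes that rose lay near that of all genes, so the count of rises is not a result about the clusters.

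**Figure D1:**
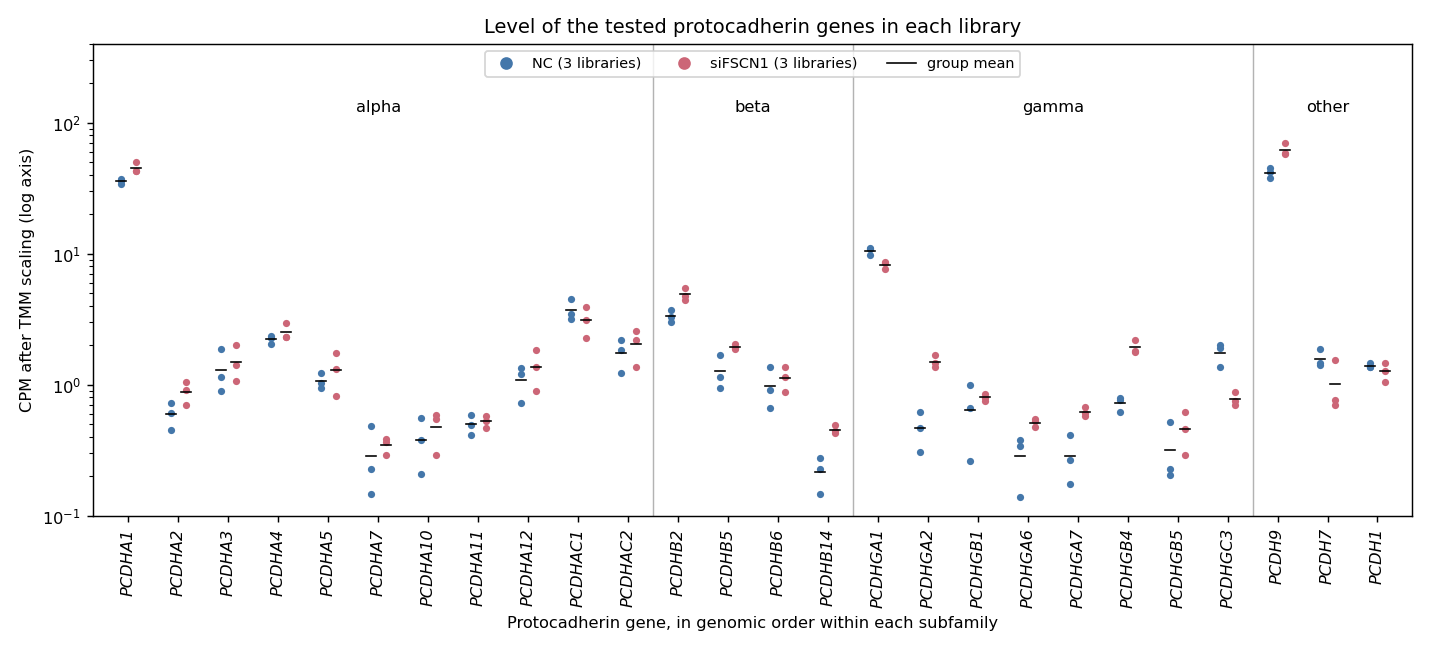
Each point is the CPM of a gene after TMM scaling in 1 library, on a log axis, for the 26 tested protocadherins, with NC in blue, siFSCN1 in red and short lines at the group means (n = 3). PCDHA1 and PCDH9 lie highest, and the red points lie clear of the blue ones in PCDHGA2 and PCDHGB4 (above) and in PCDHGC3 (below).

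Among the alpha genes PCDHA1 alone passed. PCDHA1 (GRCh38 chr5:140786136-141012347) had 37.1, 34.4 and 35.8 CPM in the NC libraries and 42.7, 42.9 and 49.9 CPM in the siFSCN1 libraries. All 3 siFSCN1 values lay above all 3 NC values, with a log2 fold change of 0.34 (SE 0.062, edgeR adjusted p = 1.05e-04), a 1.26-fold rise. It held 73.2% ± 1.88 (SD, n = 3) of all alpha counts in NC and 75.7% ± 1.91 in siFSCN1. PCDHA1 is the outermost gene of the cluster, its annotated span holds every other alpha gene, and 2869 of its 5595 exonic bases are shared with them. Where reads of the shared exons were counted is not stated, so reads of PCDHA1's own first exon and reads of the exons common to all alpha genes cannot be told apart in this value.

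The C-type alpha genes PCDHAC1 and PCDHAC2, which neurons use constitutively rather than by random choice, followed in deposited FPKM, which scales fragments to gene length and depth. PCDHAC1 was at 0.36, 0.39 and 0.52 FPKM in NC and 0.29, 0.39 and 0.50 FPKM in siFSCN1, and PCDHAC2 at 0.23, 0.28 and 0.16 against 0.20, 0.31 and 0.37 FPKM. Their groups overlapped, with log2 fold changes of -0.27 (SE 0.18) and 0.23 (SE 0.25) that did not pass (edgeR adjusted p = 0.199 and 0.415). PCDHAC1 passed as lower without siFSCN1 replicate 3 (-0.49, edgeR adjusted p = 0.0442) and once the trend of fold change with abundance was removed (-0.50, 0.0229). The other 8 tested alpha genes had log2 fold changes from 0.08 to 0.56, of which none passed, PCDHA2 being highest at 0.56 (SE 0.31, edgeR adjusted p = 0.116, and 0.0386 with library totals).

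Of the 4 beta genes tested, 3 rose and none fell. PCDHB2 (chr5:141094606-141098703), the beta gene with the highest FPKM, had 3.01, 3.27 and 3.74 CPM in NC and 4.77, 5.47 and 4.41 CPM in siFSCN1. The groups did not overlap, and its log2 fold change was 0.54 (SE 0.14, edgeR adjusted p = 0.00179). PCDHB2 overlaps the antisense gene PCDHB1-AS1, PCDHB5 and PCDHB6 each overlap 2 annotated genes on the opposite strand, and PCDHB14 overlaps 1. Whether strand was used in counting was not given in the sources used here, although the libraries were strand-specific.

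PCDHB5 had 1.70, 0.950 and 1.14 CPM in NC and 1.89, 1.88 and 2.06 CPM in siFSCN1. NC replicate 1 lay close to the siFSCN1 values, and the log2 fold change was 0.62 (SE 0.22, edgeR adjusted p = 0.0203). The call was lost without NC replicate 2 (edgeR adjusted p = 0.111), NC replicate 3 (0.0826) or siFSCN1 replicate 3 (0.0655), with DESeq2 (0.0948) and once the trend of fold change with abundance was removed (0.22). PCDHB6, at 0.16, 0.22 and 0.34 FPKM in NC and 0.38, 0.24 and 0.32 FPKM in siFSCN1, overlapped between groups and did not pass (log2 fold change 0.19, SE 0.29, edgeR adjusted p = 0.582).

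PCDHB14 was the one beta gene called at 2-fold, from 8, 6 and 5 counts in NC to 17, 14 and 15 counts in siFSCN1. That equals 0.277, 0.228 and 0.146 CPM against 0.494, 0.425 and 0.441 CPM, a log2 fold change of 1.08 (SE 0.42, edgeR adjusted p = 0.0319). With so few counts the call was fragile, being lost without any one library other than NC replicate 1 (edgeR adjusted p from 0.0585 without siFSCN1 replicate 2 to 0.144 without NC replicate 3). It was also lost with no filter on low counts (0.0791), with DESeq2 (0.174) and once the trend of fold change with abundance was removed (0.254). Summed over all 15 beta genes, the level was 6.75 CPM ± 0.597 (SD, n = 3) in NC and 10.3 CPM ± 0.638 in siFSCN1, a ratio of 1.52 with no overlap between groups.

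The gamma genes moved apart. Of the 8 tested, 3 rose, 2 fell and 3 did not pass. Summed over all 20 gamma genes the level was 15.3 CPM ± 0.746 (SD, n = 3) in NC and 15.4 CPM ± 0.183 in siFSCN1, a ratio of 1.00. Behind that equal sum, PCDHGA1 and PCDHGC3 were lower and PCDHGA2, PCDHGA7 and PCDHGB4 higher.

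PCDHGA2 (chr5:141338760-141512975) had 18, 8 and 16 counts in NC and 47, 48 and 57 counts in siFSCN1. In CPM these were 0.623, 0.304 and 0.467 against 1.37, 1.46 and 1.68, so that the lowest siFSCN1 value was above the highest NC value. Its log2 fold change of 1.67 (SE 0.29, edgeR adjusted p = 5.95e-05), a 3.19-fold rise, was the largest among the tested members. PCDHGB4 (chr5:141387698-141512975) had 18, 20 and 27 counts in NC and 61, 60 and 75 in siFSCN1, or 0.623, 0.760 and 0.789 against 1.77, 1.82 and 2.21 CPM. It rose 2.66-fold (log2 fold change 1.41, SE 0.23, edgeR adjusted p = 3.14e-05). Both passed under all 16 alternatives, including each fit without 1 library. Their lowest log2 fold changes, 0.18 and 0.20, came with limma on log2(FPKM + 1), a scale that understates changes of low genes. The filter kept PCDHGA2 only with counts of siFSCN1 libraries. A stricter filter, of at least 1 CPM in each of 3 libraries, kept both genes only with those libraries. Passing in these fits therefore leans towards rises.

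PCDHGA7, next to PCDHGB4 in the cluster, had 12, 7 and 6 counts in NC and 21, 19 and 23 in siFSCN1, or 0.415, 0.266 and 0.175 against 0.611, 0.577 and 0.677 CPM. The groups did not overlap and the log2 fold change was 1.14 (SE 0.39, edgeR adjusted p = 0.0156). The call was lost without NC replicate 3 (edgeR adjusted p = 0.092) or siFSCN1 replicate 3 (0.0509), with DESeq2 (0.0938) and once the abundance trend was removed (0.142). PCDHGA6, the neighbour on the other side, was at 0.138, 0.342 and 0.380 CPM in NC and 0.523, 0.547 and 0.471 CPM in siFSCN1 and did not pass (log2 fold change 0.82, SE 0.41, edgeR adjusted p = 0.0854) except with library totals (0.0369). PCDHGB1 (0.38) and PCDHGB5 (0.53) did not pass either, and the difference between PCDHGB4 and PCDHGB5 was not tested.

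PCDHGC3 (chr5:141475947-141512977), a C-type gene at the far end of the cluster that many cell types outside the nervous system express, went the other way. It had 58, 50 and 47 counts in NC and 26, 23 and 30 in siFSCN1, or 2.01, 1.90 and 1.37 against 0.756, 0.698 and 0.883 CPM. Every siFSCN1 value was below every NC value, and the gene fell 2.24-fold (log2 fold change -1.16, SE 0.25, edgeR adjusted p = 4.11e-04). It passed under all 16 alternatives, with log2 fold changes of counts from -1.495 once the abundance trend was removed to -0.97 with library totals, the latter just short of 2-fold. No annotated gene overlaps PCDHGC3 on the opposite strand, whereas 2 overlap PCDHGA2 and 1 each overlaps PCDHGA7 and PCDHGB4. Of its 5430 exonic bases 2177 are shared with other gamma genes. So are 2177 of 6720 in PCDHGA2, 2177 of 5439 in PCDHGA7 and 4443 of 6902 in PCDHGB4. The limit given for PCDHA1 on shared exons holds for these 4 genes too.

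PCDHGA1 (chr5:141330514-141512975), the outermost gamma gene, had 9.72, 11.01 and 10.8 CPM in NC and 8.61, 8.44 and 7.62 CPM in siFSCN1. Its log2 fold change was -0.36 (SE 0.11, edgeR adjusted p = 0.00708) with no overlap of the groups. This fall depended on the scaling. With upper quartile scaling it was -0.24 (edgeR adjusted p = 0.0582) and with library totals -0.17 (0.174), and in deposited FPKM the groups overlapped, at 1.21, 1.39 and 1.38 in NC and 1.23, 1.18 and 1.08 in siFSCN1. Its span takes in the other gamma genes, except for the last bases of PCDHGC3, and 2177 of its 6303 exonic bases are shared, so the limit given for PCDHA1 holds here too.

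The make-up of the gamma counts shifted between groups, which does not depend on the scaling of the libraries. With PCDHGA1 left out, PCDHGC3 took 38.2, 36.8 and 34.6% of gamma counts in the NC libraries. In siFSCN1 its share was 10.9% ± 0.760 (SD, n = 3), with a highest value of 11.5%. PCDHGB4 went from 15.5% ± 4.06 (SD, n = 3) to 26.9% ± 0.846 and PCDHGA2 from 9.83% ± 3.42 to 20.9% ± 0.204. In NC, PCDHGC3 had the largest share of these 3 genes in every library, and in siFSCN1 the smallest. These 3 genes are among those called at 2-fold, and neither their choice nor leaving out PCDHGA1 was planned. Their change of order thus restates their fold changes and is not separate support. The gamma sum without PCDHGA1 was 4.799 CPM ± 0.718 in NC and 7.18 CPM ± 0.694 in siFSCN1, a ratio of 1.495 with no overlap. With 3 libraries against 3 an exact permutation test of such a value cannot give a p under 0.1, and none is given.

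**Figure D2:**
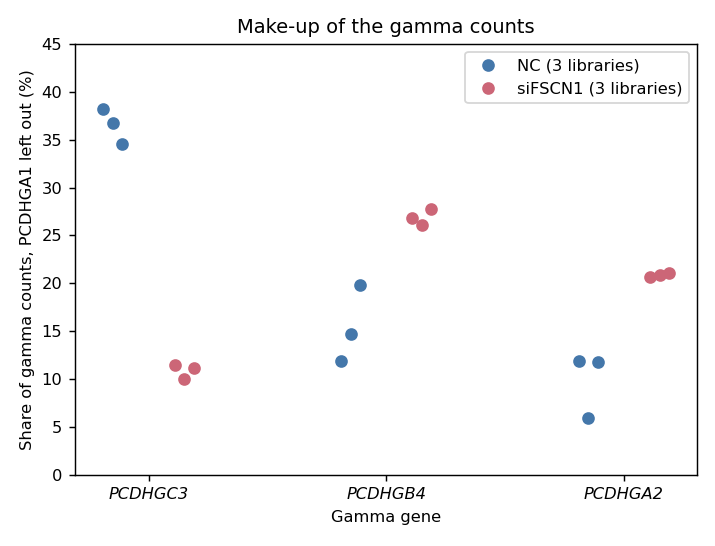
Each point is the share of 1 library's gamma counts, in percent and with PCDHGA1 left out, that fell on PCDHGC3, PCDHGB4 or PCDHGA2, with NC in blue and siFSCN1 in red (3 libraries each). PCDHGC3 falls from between 34.6 and 38.2% to at most 11.5%, and the other 2 genes lie higher in every siFSCN1 library. All 3 genes were taken from those called at 2-fold.

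Outside the clusters PCDH9, on chromosome 13, a delta-type protocadherin of the nervous system, was the most counted member. It had 37.8, 41.9 and 45.5 CPM in NC and 57.6, 58.4 and 69.7 CPM in siFSCN1, and 0.96, 1.08 and 1.18 against 1.68, 1.66 and 2.00 FPKM. All siFSCN1 values were above all NC values, with a log2 fold change of 0.57 (SE 0.074, edgeR adjusted p = 1.87e-06), a 1.48-fold rise that passed under all 16 alternatives. Per length it lay well below PCDHA1, which had 5.22, 4.88 and 5.13 FPKM in NC and 6.90, 6.76 and 7.94 FPKM in siFSCN1. PCDH9 is overlapped on the opposite strand by 5 annotated genes, among them PCDH9-AS1 to PCDH9-AS4.

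PCDH7, on chromosome 4, had 1.87, 1.41 and 1.46 CPM in NC and 0.698, 1.55 and 0.765 CPM in siFSCN1. Replicate 2 of siFSCN1 lay among the NC values, and the log2 fold change of -0.66 (SE 0.28, edgeR adjusted p = 0.0486) barely passed. The call was lost under 11 of 16 alternatives. These included leaving out NC replicate 1 (edgeR adjusted p = 0.156), 2 (0.0583) or 3 (0.062), leaving out siFSCN1 replicate 1 (0.18) or 3 (0.154), and DESeq2 (0.104). PCDH1, a protocadherin of airway epithelium that lies on chromosome 5 beyond the gamma cluster, was at 1.45, 1.37 and 1.37 CPM in NC and 1.05, 1.28 and 1.47 CPM in siFSCN1. Its groups overlapped, and its log2 fold change was -0.14 (SE 0.22, edgeR adjusted p = 0.579), turning to 0.04 with library totals.

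Summed levels put these single genes in proportion. All alpha genes together had 48.8 CPM ± 0.635 (SD, n = 3) in NC and 59.7 CPM ± 5.84 in siFSCN1, a ratio of 1.22 without overlap, but without PCDHA1 the sums were 13.1 and 14.5 CPM and overlapped. The other protocadherins had 44.98 CPM ± 3.497 and 64.5 CPM ± 6.79, a ratio of 1.43, of which PCDH9 held 92.7% and 96.0%, and without it 3.26 and 2.56 CPM, which overlapped. The separation of the groups in the alpha and in the other sum therefore rested on the counts assigned to PCDHA1 and to PCDH9. Those of PCDHA1 may hold reads of exons shared by all alpha genes, so the alpha separation cannot be ascribed to 1 gene. The gamma sum differed between groups only once PCDHGA1, which has the same limit, was left out.

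**Figure D3:**
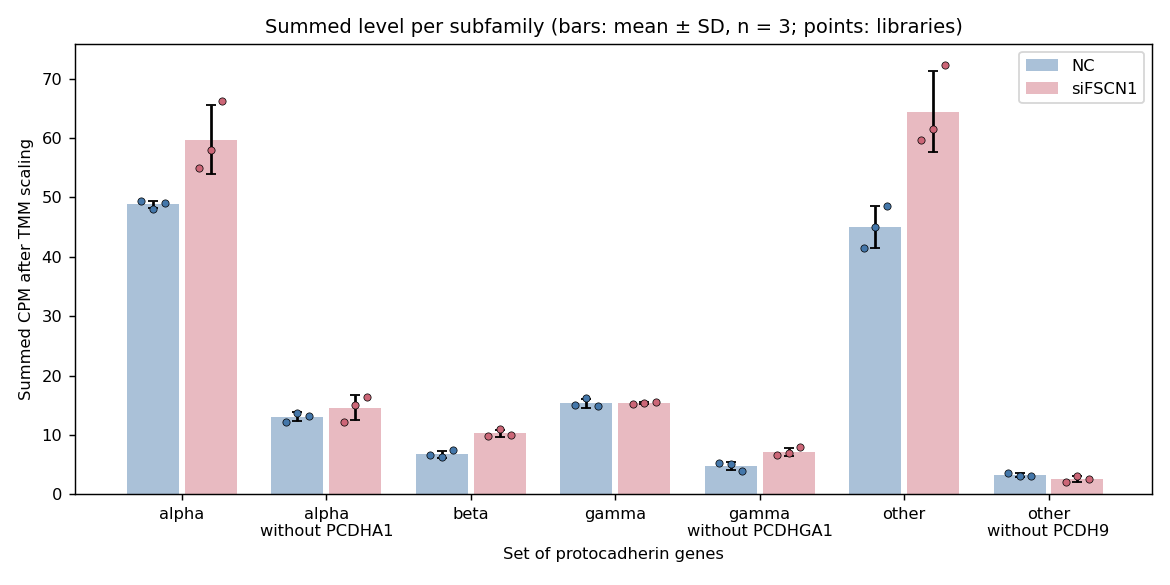
Bars show the mean summed CPM of each set of protocadherin genes with its SD (n = 3), and points the 3 libraries, with NC in blue and siFSCN1 in red. The beta sum rises from 6.75 to 10.3 CPM, the gamma sum stays at 15.3 and 15.4 CPM, and without PCDHGA1 it rises from 4.799 to 7.18 CPM.

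Set side by side, the median log2 fold change was 0.25 in alpha, 0.58 in beta, 0.67 in gamma and 0.34 over the 23 clustered genes tested, against -0.14 over the 3 other protocadherins and 0.03 over all tested genes. It lay above 0 in 20 of 23 clustered genes and in 51.8% of all tested genes. That count and the beta, gamma and clustered medians take in genes that passed the filter only with siFSCN1 libraries. They therefore do not show a direction of the clusters. The difference of 0.48 between clustered and other genes is a description of 23 genes against 3. It turned to -0.25 when the log2 ratios of the summed CPM of each set were compared, with no test. It was 0.084 among members whose mean FPKM reached 0.1, and 0.057 with limma on log2(FPKM + 1), a scale that understates changes of low genes.

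Abundance moved with this direction. Among all tested genes the median log2 fold change was 0.46 below a mean of 1 CPM, 0.28 from 1 to 3, 0.19 from 3 to 10, -0.07 from 10 to 100 and -0.28 from 100 CPM upwards. The protocadherins in the same bands numbered 10, 11, 3, 2 and 0, with medians of 0.54, 0.22, -0.27 and 0.45. In the bands below 1 CPM and from 1 to 3 CPM, which held most members, their medians thus lay within 0.1 of that of all genes, while PCDHA1 and PCDH9 lay above the median of their band. Once the trend with abundance was removed, 4 clustered genes rose in place of 7, and PCDHAC1 fell beside PCDHGA1 and PCDHGC3.

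**Figure D4:**
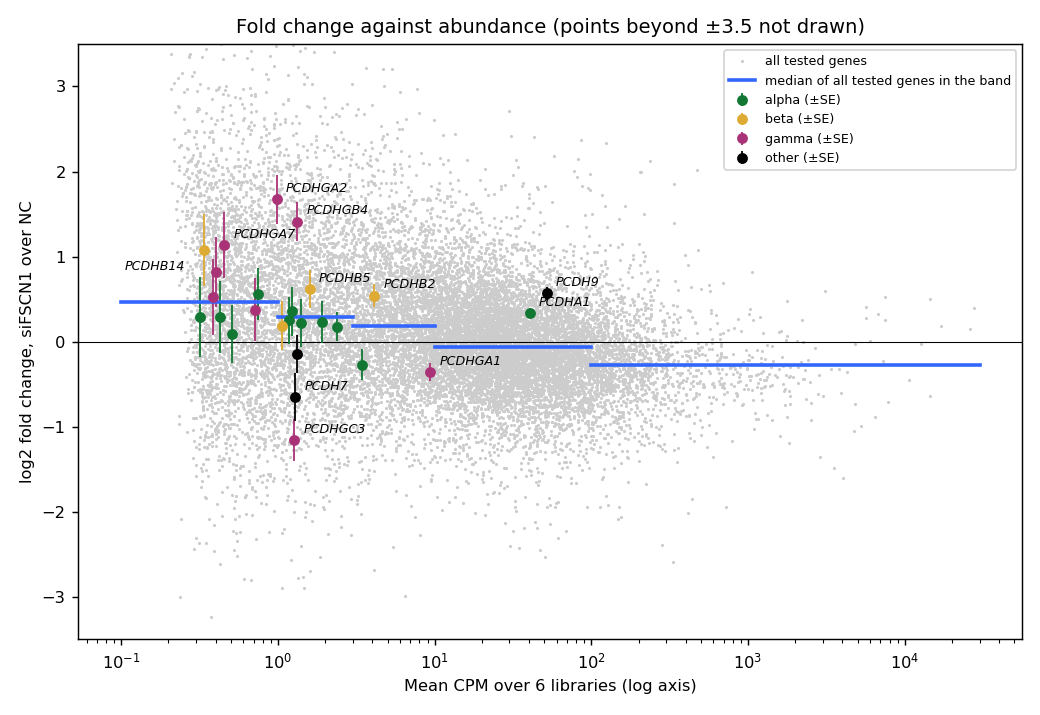
Log2 fold change (siFSCN1 over NC) against mean CPM on a log axis, with all 17076 tested genes in grey, the median of all genes in each abundance band as a blue line, and the 26 protocadherins in colour by group with SE bars. Labelled members passed the test, PCDHGA2 and PCDHGB4 lie far above the blue line of their band and PCDHGC3 far below it.

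The filter left out 32 members, 27 clustered and 5 other, none of which exceeded 23 counts in any library. Together the clustered ones had 128 counts in NC and 294 in siFSCN1, and the other ones 25 and 30. Over the whole table, too, more genes had a count in siFSCN1 (24738 to 25135 per library) than in NC (22904 to 23812). The share of all left-out genes that rose or passed was not computed. Neither these counts nor the passes below are therefore a result about the clusters. PCDHA13 stood out with 0, 2 and 3 counts in NC and 11, 5 and 23 in siFSCN1, and PCDHB7 with 0, 0 and 1 against 2, 9 and 7. In a fit with no filter beyond 1 count these were the 2 of 32 that passed, PCDHA13 at a log2 fold change of 2.69 (SE 0.71, edgeR adjusted p = 5.74e-04) and PCDHB7 at 3.59 (SE 1.2, edgeR adjusted p = 0.00918). PCDHB11 (3, 3 and 2 against 11, 10 and 8 counts) did not overlap between groups and just missed the threshold (edgeR adjusted p = 0.053), and PCDHGB3 was at 0 in all NC libraries and at 1, 2 and 2 counts in siFSCN1. Over all 50 clustered genes the CPM of 12 lay wholly above NC and of 2 wholly below, and of the 23 tested it did so for 8 and 2, against 36.8% and 34.4% of all tested genes. Of the 5 PCDH symbols that are not protein-coding none passed the filter.

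The proteins that act on these genes were described from a list of 14 known regulators of clustered protocadherin promoters. Of these, 4 rose and 5 fell, against 35.1% and 33.2% of all tested genes, so the counts are not a result about the list. None changed by 2-fold, and the list's median log2 fold change was 0.03. TRIM28, a corepressor and the gene of this list with the highest FPKM, fell from 683 CPM ± 5.60 (SD, n = 3) to 435 CPM ± 19.1 (log2 fold change -0.65, edgeR adjusted p = 4.63e-11). The genes that fell were SMC1A (-0.83) and STAG1 (-0.34), both cohesin subunits, DNMT1 (-0.71), which copies DNA methylation, TRIM28 and CTCF (-0.25). Those that rose were DNMT3A (0.91) and DNMT3B (0.65), which set new methylation, NIPBL (0.49), which loads cohesin, and SETDB1 (0.33), a histone H3 lysine methyltransferase. The falls of CTCF and STAG1 depended on the scaling, being -0.07 and -0.16 with library totals and no longer passing, and with library totals 8 of the 14 rose and 3 fell. The cohesin subunits RAD21 (0.08), SMC3 (0.01) and STAG2 (0.06) did not pass, but with library totals all 3 passed as higher (0.26, 0.20 and 0.24), as RAD21 (0.19) and STAG2 (0.17) did with upper quartile scaling. The part of these differences in those of the protocadherins was not tested.

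Among 27 partners of the protocadherin cytoplasmic tail and the proteases that cut them, 26 were tested, with a median log2 fold change of 0.02. Of these 10 rose and 11 fell, against 35.1% and 33.2% of all tested genes, of which 11.7% were called higher at 2-fold. The counts are therefore not a result about the list. The balance of 10 and 11 depended on the scaling, with 12 higher, 10 lower and a median of 0.13 under upper quartile scaling and 13, 7 and 0.20 under library totals. The 3 called at 2-fold were all higher, namely MARCKS (1.35, edgeR adjusted p = 3.5e-14), an actin-binding substrate of protein kinase C, PTK2B (1.34, 5.77e-11), the kinase PYK2 that the shared alpha and gamma tails inhibit, and APH1B (1.21, 3.53e-12), a subunit of the protease gamma-secretase. Of the proteases, ADAM10, which sheds the extracellular part, rose by 0.48, while APH1A (-0.89) and PSENEN (-0.49), further gamma-secretase subunits, fell. BRK1, a subunit of the WAVE complex and the gene of this list with the highest FPKM, rose by 0.13. PTK2, the other kinase bound by the shared tails, did not pass (-0.02) except with library totals, where it was higher (0.17, edgeR adjusted p = 0.00273).

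The remaining cadherin superfamily numbered 43 genes, of which 26 were tested, 10 rose and 2 fell, with a median log2 fold change of 0.29. Of all tested genes 35.1% rose and 33.2% fell. The count of rises lay near that share and is not a result about the list. With upper quartile scaling 12 rose and none fell (median 0.40), and with library totals 16 rose and none fell (0.47). The median of all tested genes moved upwards too, from 0.03 to 0.15 and 0.22. Called at 2-fold, all higher, were CDH1 (1.35), the epithelial E-cadherin and the gene of this list with the highest FPKM, CDH17 (1.53), CLSTN3 (1.19), CDH19 (1.94) and CDH10 (1.05), with edgeR adjusted p from 8.03e-15 to 0.0158. The share called higher among all tested genes was 11.7%. CDH1 went from 70.6 CPM ± 1.88 (SD, n = 3) to 180 CPM ± 1.96. The genes that fell were CELSR1 (-0.21) and CELSR2 (-0.32), cadherins of planar cell polarity, and neither passed with upper quartile scaling or library totals.

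Genes beside or between the clusters on chromosome 5 differed in both directions. Of 15 tested, 4 rose and 8 fell, with a median log2 fold change of -0.15. Of all tested genes 35.1% rose, 33.2% fell and 4.85% were called lower at 2-fold. Most of these neighbours had a mean of 10 to 100 CPM, where 33.5% of all tested genes rose and 43.6% fell. The counts are therefore not a result about the neighbours. With library totals 5 rose and 4 fell, and the median turned to 0.04. TAF7, a subunit of the transcription factor TFIID that lies between the beta and gamma clusters, rose by 0.41 (edgeR adjusted p = 1.94e-06). NDUFA2, a subunit of mitochondrial complex I and the gene of this list with the highest FPKM, fell by 1.42 on the log2 scale and DIAPH1, a formin that nucleates actin, by 1.27, both called at 2-fold.

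**Figure D5:**
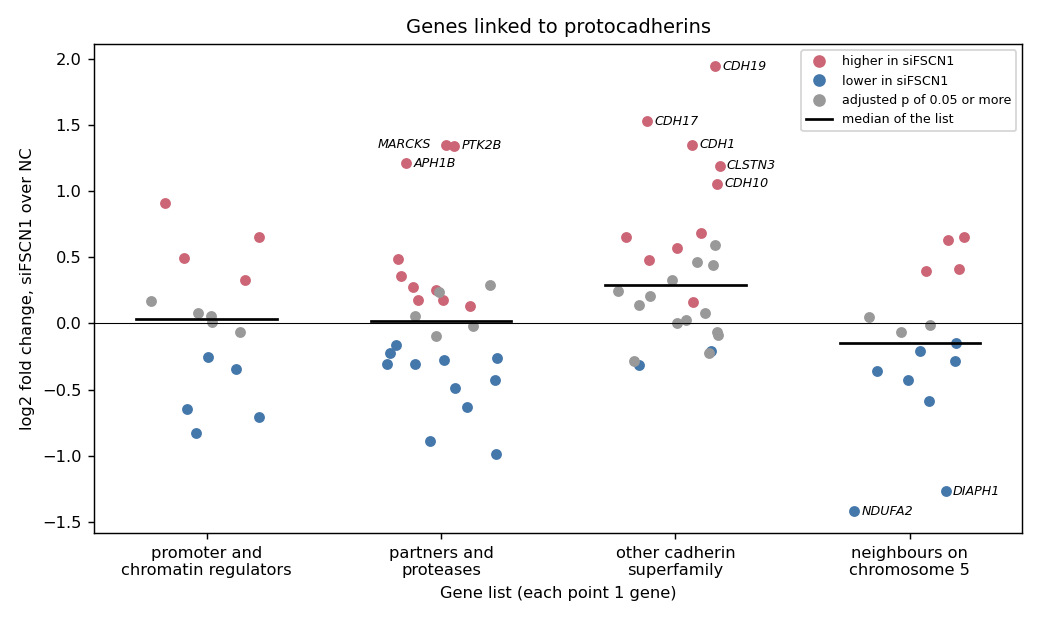
Each point is the log2 fold change of a tested gene (siFSCN1 over NC) in 1 of 4 gene lists, red or blue where its adjusted p was under 0.05 and grey otherwise, with a line at the list's median. The medians are 0.03, 0.02, 0.29 and -0.15 from left to right, and labelled genes changed at least 2-fold.

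Since protocadherins are best known from neurons, neuronal markers were read in the same libraries. Of 10, 8 had a row and 6 were tested, while 35.1% of all tested genes rose and 33.2% fell. Of the 6, 4 rose, namely MAP2 (2.44), RBFOX3 (1.71), SNAP25 (1.31) and SYT1 (0.82), NEFL fell (-0.54) and TUBB3 did not pass (0.19). DCX and STMN2 had no row. The summed level ran from 58.7 to 61.9 CPM in NC and from 92.5 to 97.0 CPM in siFSCN1. Of the 6 fibroblast markers 2 were tested and neither passed, with sums of 3.72 to 4.57 CPM in NC and 2.68 to 4.86 CPM in siFSCN1, and the endothelial and immune sums stayed below 0.4 CPM in every library. The part of the neuronal markers in the protocadherin differences was not tested.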

How the data were processed

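The 6 libraries were grouped by their titles into NC and siFSCN1, with 3 in each. The authors deposited raw counts per gene for 30230 genes and FPKM for 29899 genes, made per the labels and the study's methods from strand-specific poly-A libraries aligned to GRCh38. The methods name HISAT2 and the submitters' processing notes TopHat2, and the labels and methods name different library kits. The counting program, strand setting and annotation release were not given in the sources used here. Deposited FPKM divides by the full exonic length of a gene: with that length the fragment total implied by the protocadherins of higher FPKM, PCDH9 among them, varied by at most 0.978% (CV) within a library, against at least 24.5% with the exons of a gene's own.

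Counts were filtered with filterByExpr, scaled by TMM and tested with the quasi-likelihood test of edgeR 4.0.16 (R 4.3.3), with no covariate and Benjamini-Hochberg adjustment over 17076 genes. SE was derived from the fold change and its F statistic. Called genes also changed at least 2-fold. P-values measure the spread between these libraries. Levels per gene are CPM after TMM. All 58 identifiers matched GENCODE v44, the source of positions and lengths.

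Values in every library were given for members called at 2-fold and for the 3 of highest mean FPKM in each group. The other members with single values (PCDHGA6, PCDHA2, PCDHGB1, PCDHGB5 and those that the filter left out) were picked after their values were seen. Of each gene list, those called at 2-fold, up to 5, and that of highest mean FPKM were named, and the further list genes were picked after their values were seen. The members and lists were chosen with earlier results of these data known. Alternatives were RLE, upper quartile and library-total scaling, keeping each gene with a count, a stricter filter (at least 10 counts on average, and at least 1 CPM in each of 3 libraries), a replicate block, leaving out each library, DESeq2 1.42.0, limma 3.58.1 on log2(FPKM + 0.1) and log2(FPKM + 1), and removal of the abundance trend. The test was first run on simulated data. Replicate numbers did not pair the libraries. Promoter sequences were RefSeq's for GRCh38.p14, one window a gene, searched on both strands.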

Additional observations from a re-analysis of the deposited data

How the results depend on the processing

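Of the 11 protocadherins that passed, PCDHA1, PCDHB2, PCDHGA2, PCDHGB4, PCDHGC3 and PCDH9 passed in each of 16 alternatives, and 5 (PCDHB5, PCDHB14, PCDHGA1, PCDHGA7 and PCDH7) lost the call in at least 1. Of 407 values over members and alternatives, 352 kept direction and side of the threshold, 32 lost and 4 gained the call, and 19 turned sign, all of members that had not passed. The causes were not tested unless named. The clustered genes that rose numbered 7, but 4 once the abundance trend was removed and 4 at 2-fold, 5 with the stricter filter, 8 with no filter, 9 with library totals, and 5 (without NC replicate 3 or siFSCN1 replicate 3) to 9 (without NC replicate 1) when 1 library was left out. The stricter filter kept PCDHGA2 and PCDHGB4 only with siFSCN1 libraries. No share of all genes under the same setting stands beside these counts, so they are not a result about the clusters. The clustered genes that fell numbered 2, but 1 with upper quartile scaling, library totals, either limma fit or at 2-fold, and 3, with PCDHAC1 added, without siFSCN1 replicate 3 or once the abundance trend was removed. The other protocadherins that fell numbered 1, but 0 with upper quartile scaling, library totals, the stricter filter, DESeq2, either limma fit or at 2-fold, and 0 to 1 when 1 library was left out. Those that rose numbered 1, but 0 at 2-fold. The difference between the clustered and the other median, 0.48, was 0.63 with no filter, 0.39 with the stricter filter, 0.63 with DESeq2, 0.29 and 0.057 with limma on log2(FPKM + 0.1) and log2(FPKM + 1), 0.084 at a mean FPKM of at least 0.1, -0.25 on summed counts, and 0.48 to 0.63 when 1 library was left out, the highest without NC replicate 2. Changed genes over the whole table numbered 2820, but 471 with limma on log2(FPKM + 1), which shrinks changes of low genes. With the replicate block 2827 genes changed, the median difference was 0.48, and no protocadherin changed its call. The numbers shared no pairing, with correlations of same-numbered deviations of -0.03, 0.04 and -0.08. The median of all genes was 0.03 with TMM, 0.01 with RLE, 0.15 with upper quartile scaling and 0.22 with library totals, which moves every gene upwards. The values that turned sign were PCDH1 with library totals (0.043), limma on log2(FPKM + 0.1) (0.012) and log2(FPKM + 1) (0.0038), and, over the fits without 1 library, PCDHA10 (-0.012 to 0.69) and PCDHB6 (-0.042 to 0.53), lowest without NC replicate 1, PCDHA7 (-0.068 to 0.90), PCDHA11 (-0.059 to 0.21) and PCDHGB1 (-0.040 to 0.82), lowest without NC replicate 3, and PCDHA3 (-0.056 to 0.53) and PCDHA5 (-0.020 to 0.48), lowest without siFSCN1 replicate 2. Once the abundance trend was removed they were PCDHA3 (-0.10), PCDHA4 (-0.095), PCDHA5 (-0.086), PCDHA7 (-0.23), PCDHA10 (-0.19), PCDHA11 (-0.37), PCDHAC2 (-0.055), PCDHB6 (-0.16) and PCDHGB1 (-0.028). Depth limits the 32 members that the filter left out, where a difference was mostly not detectable.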
